A study of Mus musculus with 130 samples.

Results

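Zbtb8b (ENSMUSG00000048485) and Ffar4 (ENSMUSG00000054200) are 2 of the 35274 genes in the diet table and 2 of the 35711 genes in the strain table of this mouse liver RNA-seq study. They were chosen by their measured rises in mice fed 2% carbonyl iron, for Zbtb8b against mice on 50 ppm iron and for Ffar4 against mice on chow. Those 2 comparisons are therefore given as descriptions, with no test.

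The study covered 130 male mice and sequenced total RNA of the large lobe of the liver. In the diet study, C57BL/6J mice received chow, 50 ppm iron, 500 ppm iron, 2% carbonyl iron (20000 ppm) or 2% carbonyl iron with cellulose, with 3 mice per diet. In the strain panel, 115 mice of 114 inbred strains ate chow for 4 weeks and then the 2% carbonyl iron diet for 6 weeks. All panel mice were iron-fed, so the panel has no control diet, and each strain is 1 mouse except 129X1/SvJ, which has 2. The labels give no ages, no duration for the diet study and no fibre content for the diets other than the cellulose one.

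Zbtb8b belongs to the family of zinc finger proteins with a BTB domain, most of which bind DNA and recruit repressor complexes; its own role in the liver is little described. Ffar4, also called GPR120, is a cell-surface receptor coupled to G proteins. It is activated by long-chain fatty acids, including omega-type polyunsaturated ones, and is known from fat tissue, hormone-secreting cells of the gut, and macrophages. Through Gq proteins it raises calcium in the cell, and through beta-arrestin it dampens inflammatory signalling.

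In the GENCODE M21 annotation of GRCm38, Zbtb8b lies on the minus strand of chromosome 4 at 129425765-129440853 and has 4 annotated transcripts. The protein-coding Zbtb8b-201 and Zbtb8b-202 each have 4 exons and measure 3288 and 3323 bases, while the non-coding Zbtb8b-204 has 2 exons and only 516 bases. Ffar4 lies on the plus strand of chromosome 19 at 38097071-38114263 and has 1 transcript of 3 exons and 1401 bases. Neither gene overlaps another annotated gene.

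Since both genes were at or near 0 on the lower-iron diets in most mice, the sequence upstream of each is shown, from the RefSeq promoter table of build GRCm38.p6. Each run ends at the base before the GENCODE gene start. Capitals mark the letters TGCGCNC on either strand, one spelling of the core of the metal response element, and the only one of 10 searched motifs found in the promoter windows of both genes (250 bases before to 50 after the RefSeq start).
Zbtb8b upstream, chr4:129440854-129441068, minus strand: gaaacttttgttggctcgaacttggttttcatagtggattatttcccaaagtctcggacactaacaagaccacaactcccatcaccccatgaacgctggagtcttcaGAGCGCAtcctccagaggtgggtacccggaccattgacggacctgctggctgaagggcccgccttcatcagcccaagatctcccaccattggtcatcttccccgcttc
Ffar4 upstream, chr19:38096829-38097070, plus strand: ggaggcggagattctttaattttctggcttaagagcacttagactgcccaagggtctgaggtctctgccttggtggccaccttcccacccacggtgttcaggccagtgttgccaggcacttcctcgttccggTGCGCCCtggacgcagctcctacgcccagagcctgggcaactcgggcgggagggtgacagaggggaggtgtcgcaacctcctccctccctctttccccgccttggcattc
In Zbtb8b the match is on the opposite strand and begins 143 bases before the RefSeq start; in Ffar4 it is on the gene's strand and begins 118 bases before it. The same letters occur in 15.4% of the 32851 promoter windows of equal length. Outside the printed runs, the Zbtb8b window also held GCGTG (in 32.4% of windows), part of the hypoxia response core, and the Ffar4 window held GGCGCC (in 11.9%), which SMAD proteins bind. The other 7 motifs were in neither window: ACGTG (19.6% of windows), TGACNNNGC of the antioxidant response element (12.4%), TGCACNC (12.6%), CACGTG (7.15%), TATAAA (13.6%), GTCTAGAC (0.213%) and the direct repeat bound by nuclear receptor pairs (0.0396%). These are letter matches on both strands and not measured binding sites.

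Libraries held 10420708 to 20357169 counts in the diet study and 9407880 to 20572879 in the panel. Library size did not track the members across strains (Spearman's rho 0.06 for Zbtb8b and -0.04 for Ffar4, n = 114). The library labelled BXD65/RwwJ, a male per its label, had a summed level of 3.86 counts per 1000000 of its total for Y-linked genes, against 124 to 313 in the other 114 panel libraries. It counted 13.1 reads of Zbtb8b and 9 of Ffar4, and strain results were also computed without it. In the 500 ppm group, mouse 2 stood apart from the other mice of its group for both genes, and results that rest on it are given with and without it.

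Zbtb8b was close to silent in livers of mice on chow and on 50 ppm iron. On chow the 3 mice held 1, 2 and 0 counts, and on 50 ppm iron all 3 held 0, which allows a group total of up to 3 counts. On 500 ppm iron the counts were 0, 17.1 and 1, or 0, 0.823 and 0.0719 CPM (counts per 1000000 of a TMM-adjusted library size). On 2% iron the mice reached 2.15, 1.69 and 2.22 CPM (2.02 ± 0.289, SD, n = 3), and on 2% iron with cellulose 2.42, 3.26 and 2.31 CPM (2.66 ± 0.523, SD, n = 3). All 6 mice on 2% iron lay above all 9 others. Per transcript length, the level stayed low even then, at 0.722 ± 0.162 TPM (SD, n = 3; transcripts scaled per 1000000, allowing for length) on 2% iron and 1.04 ± 0.197 TPM with cellulose.

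No read of Ffar4 was counted in any chow mouse, and the 50 ppm mice held 1, 3 and 2 counts. On 500 ppm iron the 3 mice measured 0.172, 1.40 and 0.0719 CPM, and the 1.40 CPM of mouse 2 came from 29 counts. On 2% iron they measured 9.20, 2.40 and 3.58 CPM (5.06 ± 3.63, SD, n = 3). With cellulose they measured 15.1, 13.6 and 4.77 CPM (11.1 ± 5.56, SD, n = 3). The 6 mice on 2% iron again lay above the other 9, but they differed among themselves more than they did for Zbtb8b. In TPM, Ffar4 averaged 4.28 ± 3.11 (SD, n = 3) on 2% iron and 9.85 ± 4.85 with cellulose, above Zbtb8b per length on both diets.

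**Figure D1:**
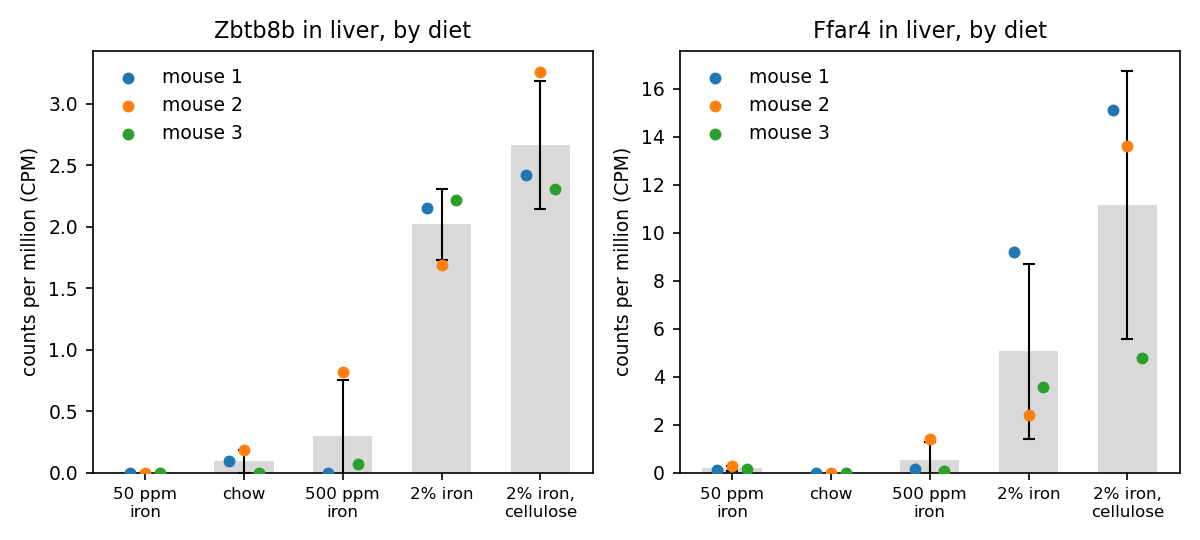
CPM of Zbtb8b (left) and Ffar4 (right) in each of the 15 diet-study livers; points are mice, bars the mean of 3 mice and whiskers the SD, not drawn below 0. All 6 mice on the 2% iron diets lie above the other 9, and mouse 2 of the 500 ppm group (0.823 and 1.40 CPM) lies above the other 2 of its group.

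In the comparisons that led to their choice, pooled over 3 mice, Zbtb8b was at least 22.1-fold higher on 2% iron than on 50 ppm, with the 50 ppm group set to 3 counts, and Ffar4 was at least 60.1-fold higher on 2% iron than on chow, with the chow group set to 3 counts. Across all 13560 genes tested, 8.52% were called higher on 2% iron than on 50 ppm and 11.9% higher than on chow. The pooled ratio of Zbtb8b on 2% iron to chow was 23.7 (95% exact interval 7.80 to 118, counting error only), and that of Ffar4 to 50 ppm was 28 (12.6 to 77.4).

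The comparison of 2% iron with cellulose against 500 ppm contrasts none of the 9 mice behind that choice, although the fit over all 15 mice takes its estimate of the spread from those mice too. Both genes were higher. The labels of the 2 groups differ in iron and in the cellulose, so the parts of iron and fibre cannot be told apart in this comparison. The pooled ratio was 6.77 (95% exact interval 4.07 to 11.9) for Zbtb8b and 15.8 (11 to 23.5) for Ffar4. In edgeR's quasi-likelihood test over all 13560 genes, Zbtb8b rose by 2.87 on the log2 scale (SE 0.70, adjusted p = 0.0112) and Ffar4 by 4.10 (SE 0.75, adjusted p = 0.00254). In this comparison 25.8% of all genes were called, 13.4% higher and 12.5% lower (1812 and 1693 genes), so a call in this comparison was common. With limma on log2(TPM + 1) the split was 1740 higher and 496 lower, and the median over all genes shifted to 0.11; on that scale Zbtb8b rose by 0.89 and Ffar4 by 2.86. Mouse 2 of the 500 ppm group set the size of both values: without it Zbtb8b rose by 5.75 (edgeR adjusted p = 0.000365) and Ffar4 by 6.43 (edgeR adjusted p = 0.000665). In a fit of the 6 compared mice alone, which used none of those 9 in any way, the adjusted p of edgeR was 0.0424 for Zbtb8b and 0.0147 for Ffar4. In that fit both genes passed the filter on low counts only through the cellulose mice. On 500 ppm only mouse 2 held 10 or more counts of either gene. In the fit over all 15 mice they passed through the mice on 2% iron, some of which served in the choice. Their entry to these tests was therefore tied to their high level on 2% iron. Without the filter, edgeR's adjusted p over all 15 mice was 0.00681 for Zbtb8b and 0.00038 for Ffar4.

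The 2 diets with 2% iron differ in their labels by the cellulose. The mice on 2% iron alone also served in choosing both genes, so this comparison is not independent of that choice. The cellulose mice lay above the 2% mice for Zbtb8b on the CPM scale, at 2.31 CPM or more against 2.22 or less, but on the TPM scale the groups overlapped. Ffar4 overlapped on both scales. Neither difference passed edgeR's test, with log2 0.39 (SE 0.60, adjusted p = 0.828) for Zbtb8b and 1.13 (SE 0.62, adjusted p = 0.466) for Ffar4. Of all genes, 0.0811% were called in this comparison, 11 of 13560, with 0.00737% higher and 0.0737% lower, and 1757 had an unadjusted p under 0.05. Pooled counts gave a ratio of 1.30 (95% exact interval 0.949 to 1.80) for Zbtb8b and 2.13 (1.79 to 2.56) for Ffar4; these intervals leave out the spread between mice.

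At 500 ppm iron the signal was in 1 mouse. Mouse 2 held 17.1 counts of Zbtb8b and 29 of Ffar4, and the other 2 mice at most 1 and 2. Its CPM was 11.5 times that of the next mouse for Zbtb8b and 8.16 times for Ffar4. The tests below use the 50 ppm or chow mice, which also served in choosing the members. They are therefore not independent of that choice. Against 50 ppm neither gene passed edgeR's test (adjusted p = 1 for both), where 0% of genes were called, with 428 at an unadjusted p under 0.05; DESeq2 called 2 genes. Against chow the adjusted p of edgeR was 0.495 for Zbtb8b and 0.261 for Ffar4, and 0.590% of genes were called, 0.184% higher and 0.406% lower; DESeq2 gave Ffar4 an adjusted p of 0.0432 there. Between chow and 50 ppm the counts were 3 against 0 for Zbtb8b and 0 against 6 for Ffar4, and the adjusted p of edgeR was 0.687 and 0.688, with 0.391% of genes called, 0.265% higher and 0.125% lower. That 500 ppm mouse also had summed marker levels of 254 TPM for erythroid genes, against 59.2 and 76.4 in the other 2 mice, and 13 TPM for neutrophil genes, against 0.528 and 0.663. Their part in its Zbtb8b and Ffar4 counts was not tested.

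Across the strain panel, with every mouse on 2% iron, Zbtb8b ranged from 0 to 4.27 CPM with a median of 0.483 over 114 strains, and from 0 to 1.41 TPM. It had no count in 14 strains, at most 3 counts in 37, and 10 or more in 46 (40.4%). The highest strains by CPM were C58/J (4.27 CPM), BXD42/TyJ (4.16) and BXD63/RwwJ (3.65). AXB19/PgnJ, BXA13/PgnJ and BXA4/PgnJ head the 14 strains at 0 in alphabetical order, and DBA/2J is also among them. C57BL/6J, the strain of the diet study, stood at 2.54 CPM and ranked 105th of 114 from the lowest. In the diet study, which was scaled separately, mice on 2% iron measured 1.69 to 2.22 CPM and those with cellulose 2.31 to 3.26 CPM. Among the other parents of the recombinant strains, A/J had 0.434 CPM, C3H/HeJ 1.63 and BALB/cByJ 0.0910.

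Ffar4 covered a wider range, from 0 to 33 CPM with a median of 0.715, or 0 to 28.1 TPM with a median of 0.613. It had no count in 7 strains, at most 3 in 31, and 10 or more in 55 (48.2%). The highest were BXH2/TyJ (33 CPM), NOR/LtJ (32.9) and the related NOD/ShiLtJ (32.3). C57BL/6J reached 5.70 CPM, DBA/2J 0.379, A/J 0.260, C3H/HeJ 0.635 and BALB/cByJ 0. AXB12/PgnJ and BXD18/TyJ, with BALB/cByJ the first of the 7 strains at 0 in alphabetical order, had no read. In the 2 mice of 129X1/SvJ both genes were low, with 1 and 0 counts of Zbtb8b and 1 and 2 of Ffar4, the only replicate of a strain.

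**Figure D2:**
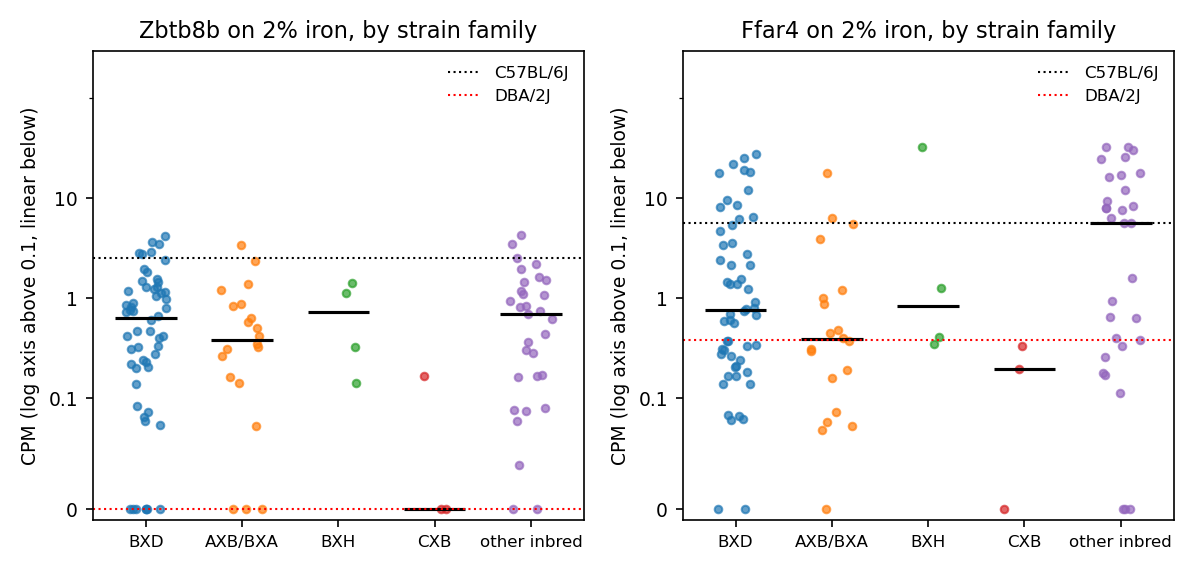
CPM of Zbtb8b (left) and Ffar4 (right) in 114 strains on 2% iron, by strain family; points are strains, black bars family medians, and dotted lines the levels of C57BL/6J and DBA/2J, parents of the BXD strains. Both genes run from 0 to well above the C57BL/6J line within the BXD family.

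By family, the median of Zbtb8b was 0.633 CPM in 56 BXD strains, 0.384 in 20 AXB/BXA, 0.725 in 4 BXH, 0 in 3 CXB and 0.698 in 31 other inbred strains. The median of Ffar4 was 0.763, 0.387, 0.840, 0.194 and 5.70 CPM in the same order. The ranges of the families overlapped for both genes, apart from the 3 CXB strains, which stayed at or below 0.167 CPM of Zbtb8b and 0.334 CPM of Ffar4 and still lay inside the ranges of the BXD strains. Between BXD and AXB/BXA strains, edgeR gave a log2 difference of 0.42 (SE 0.43, adjusted p = 0.585) for Zbtb8b and 1.01 (SE 0.61, adjusted p = 0.306) for Ffar4; 11.6% of 13794 genes were called in that comparison, 6.62% higher and 5.02% lower in BXD.

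By the rule used, the strains fell into separate clusters for Ffar4 (Ashman's D 3.99 in a mixture of 2 normal distributions on log2 CPM, where a value above 3 was counted as separate). The lower cluster held 72 strains at 0 to 1.58 CPM (median 0.320) and the higher 42 strains at 2.16 to 33 CPM (median 8.47). The clusters are parted only by the step from 1.58 to 2.16 CPM. The lower one includes the 31 strains with at most 3 counts, where log2 CPM depends much on the prior count. The mixture was fitted on that scale alone, and whether the split holds on others was not tested. Zbtb8b did not separate in this way (D 2.77). The higher Ffar4 cluster held 20 of 56 BXD, 4 of 20 AXB/BXA, 1 of 4 BXH, 0 of 3 CXB and 17 of 31 other inbred strains. Zbtb8b had a median of 1.31 CPM in the higher Ffar4 cluster and 0.253 in the lower, with overlapping ranges (0.161 to 4.27 and 0 to 1.98 CPM).

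The 2 genes were mostly detected in the same strains. Both had 10 or more counts in 40 of 114 strains, and neither did in 53. Ffar4 alone reached 10 counts in 15 strains, among them NOR/LtJ with 351 counts of Ffar4 and 3.01 of Zbtb8b, and NZB/BlNJ with 222 and 2.01. Zbtb8b alone did so in 6 strains, among them C3H/HeJ with 18 counts of Zbtb8b and 7 of Ffar4, and the library labelled BXD65/RwwJ. Within the lower Ffar4 cluster the log2 CPM of the 2 genes rose together (Pearson's r = 0.663, Spearman's rho = 0.635, n = 72, permutation p = 1e-05, the smallest that 100000 resamples can give; adjusted p = 0.00023 over 46 relations). Without the 2 strains farthest from the median of Ffar4, I/LnJ and BXD73/RwwJ, r was 0.649. Within the higher cluster the relation did not pass (r = 0.248, rho = 0.232, n = 42, adjusted permutation p = 0.250 for r). Without BXH2/TyJ and NOR/LtJ r was 0.347. Whether the 2 clusters differ in this relation was not tested.

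**Figure D3:**
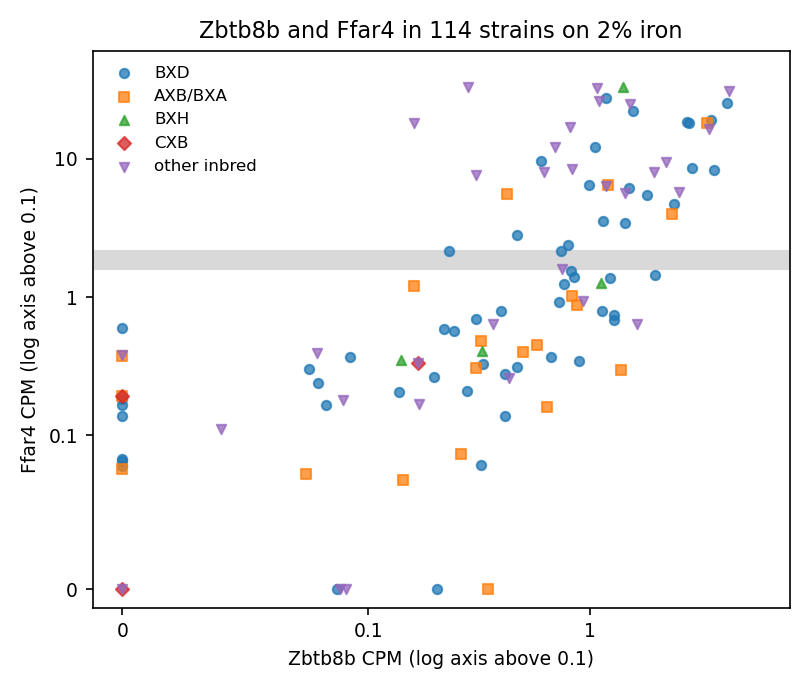
Ffar4 CPM against Zbtb8b CPM in 114 strains on 2% iron, each point a strain and each symbol a strain family, on axes that are logarithmic above 0.1 CPM and linear below; the grey band is the gap between the lower (up to 1.58 CPM) and higher (from 2.16 CPM) Ffar4 clusters. All 42 strains above the band have Zbtb8b reads (0.161 CPM or more), and NOR/LtJ and NZB/BlNJ stand at the upper left.

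Levels of Zbtb8b per length rest on few reads. The count and TPM of a library together imply the effective length behind the TPM, which for the full Zbtb8b-201 transcript is 3089 bases. In I/LnJ, the strain with the highest TPM (1.41, from 8.02 counts), the implied length was 615 bases, and in AXB4/PgnJ (1.01 TPM, 8.01 counts) it was 635 bases. C3H/HeJ, at 1.19 TPM and 18 counts, had 1397 bases. Strains were therefore ranked by CPM. For Ffar4, with a single transcript, the implied length was 1194 bases in every library with counts.

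Zbtb8b was then set against 22 genes of iron handling, stress, macrophages, scar tissue and lipid metabolism across the 114 strains, and 11 relations passed by r after Benjamini-Hochberg adjustment of permutation p-values, all positive. By rho 12 passed, the added one being the negative relation with Scd1, a fatty acid desaturase (rho = -0.26, adjusted permutation p = 0.0126; r = -0.20, adjusted permutation p = 0.0625, and r = -0.22, adjusted permutation p = 0.0397, without the 2 strains farthest from the median). The closest was Hmox1, heme oxygenase, which breaks down heme (r = 0.639, rho = 0.656, adjusted p = 5.5e-05 for r). Without C58/J and BXD42/TyJ, the 2 strains farthest from the median, r was 0.617. It was 0.696 within 56 BXD, 0.574 within 20 AXB/BXA (adjusted permutation p = 0.0929) and 0.532 within 31 other inbred strains. Cdkn1a, an inhibitor of the cell cycle, followed with r = 0.519 (rho 0.529, adjusted permutation p = 5.5e-05), and r = 0.576, 0.408 and 0.450 within those families, where the last 2 did not pass (adjusted permutation p = 0.398 and 0.0647). Tfrc, the transferrin receptor that takes up iron, had r = 0.508 (rho 0.553, adjusted permutation p = 5.5e-05), and 0.645, 0.577 and 0.291 within them, where again the last 2 did not pass (adjusted permutation p = 0.0929 and 0.327).

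Smaller positive relations of Zbtb8b were those with the macrophage genes Cd68 (r = 0.408) and Adgre1 (0.288), the proliferation gene Mki67 (0.379), the iron-binding acute phase gene Lcn2 (0.296), the BMP ligand Bmp6 (0.284), the stress hormone Gdf15 (0.267), the fatty acid transporter Cd36 (0.255) and the collagen gene Col1a1 (0.211). Col1a1 passed narrowly (adjusted permutation p = 0.0466) and lost its call in 6 of 10 alternatives, among them leaving out the library labelled BXD65/RwwJ (0.0628), centring within families (0.0556) and a prior count of 0.5 (0.0663). Gdf15 and Bmp6 lost their calls by r on both TPM scales. The adjusted permutation p was 0.0727 and 0.0640 on log2(TPM + 1), and 0.0748 and 0.0517 on log2(TPM + 0.1). Of these 8, Cd68 and Mki67 also passed within the BXD strains, and within AXB/BXA strains none passed. Within the 31 other inbred strains Bmp6 (r = 0.513) and Adgre1 (r = 0.510) passed (adjusted permutation p = 0.0276 for both), while Cd68 (r = 0.301, adjusted permutation p = 0.327) and Mki67 (r = 0.0842, adjusted permutation p = 0.720) did not. Whether the families differ in these relations was not tested. Hamp, which encodes the iron hormone hepcidin, showed no such relation (r = -0.03, rho = -0.08, adjusted permutation p = 0.876), and the macrophage gene Clec4f did not pass either (r = 0.122, adjusted permutation p = 0.307).

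For Ffar4 relations were taken within its 2 clusters, a choice made after the clusters were seen. Hmox1 passed in both (r = 0.556, rho = 0.523, adjusted permutation p = 0.00023 in the lower; r = 0.519, rho = 0.496, adjusted permutation p = 0.00561 in the higher), and r was 0.527 and 0.528 without the 2 farthest strains of each. Cdkn1a also passed in both, with r = 0.407 and 0.439. Gdf15 passed in both by r, at 0.313 and 0.505, though by rho the lower cluster missed (0.289, adjusted permutation p = 0.0583) and centring within families left the latter at 0.364 (adjusted permutation p = 0.0599). Tfrc passed in the lower cluster (r = 0.351), and Mki67, Cd68 and Clec4f did so there at 0.310, 0.299 and 0.325, where Mki67 missed by rho (adjusted permutation p = 0.0828). Cd68 lost its call by r in 5 of 6 alternatives (adjusted permutation p up to 0.0855), leaving out the library labelled BXD65/RwwJ among them, and Clec4f in 2 of 6 (up to 0.0597). In the higher cluster Tfrc had r = 0.366 (adjusted permutation p = 0.0639, and 0.0401 for its rho of 0.399) and Clec4f -0.303 (adjusted permutation p = 0.145). Hamp did not pass in either cluster (r = -0.04 and 0.0512).

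Likeness to each member was ranked by Spearman's rho of log2 CPM over 114 strains among 13936 genes, which share libraries and depth; no p is given. The 5 highest for Zbtb8b were Ankrd37, an ankyrin repeat protein (rho 0.761), Ffar4 itself (0.756), Rgs4, a brake on G protein signalling (0.754), Itgb3, an integrin subunit (0.750), and Pfkl, the liver phosphofructokinase of glycolysis (0.732). The 4 highest for Ffar4 were Fabp4, a fatty acid carrier of fat cells and macrophages (0.881), Itgb3 (0.868), Pfkl (0.867), and Bsg, a partner of lactate transporters (0.862). Zbtb8b ranked 37th for Ffar4. On log2(TPM + 0.1) the values of Zbtb8b fell to between 0.623 and 0.700, while those of Ffar4 stayed between 0.812 and 0.867. Within the lower and higher Ffar4 clusters rho was 0.672 and 0.738 for Fabp4, 0.637 and 0.764 for Bsg, and 0.705 and 0.429 for Itgb3.

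The lowest rho values for Zbtb8b were those of Ppp1r16a (-0.60), Stk11, the kinase LKB1 (-0.60), and Retreg2 (-0.59). For Ffar4 they were Zdhhc9, a palmitoyltransferase (-0.78), Tert, the telomerase reverse transcriptase (-0.77), and Ugt3a2, a sugar-conjugating enzyme (-0.77).

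The diet study measured the same genes in other mice. All 6 of these genes most like the members, beside the members themselves, were called higher on 2% iron with cellulose than on 500 ppm by edgeR, where 13.4% of all genes were. Of the 6, Ankrd37 had the largest change. It went from 0.892, 1.05 and 0.310 TPM to 15.2, 14.3 and 3.35 TPM (log2 4.10, SE 0.79, adjusted p = 0.00239), and measured 5.85, 2.58 and 15 TPM on 2% iron alone. Fabp4 went from 7.02, 10.1 and 8.34 TPM to 50.2, 25.6 and 17.4 TPM (log2 1.71, SE 0.43, adjusted p = 0.0113). Without mouse 1 of the cellulose group its adjusted p was 0.0691.

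Mouse 3 of the cellulose group was the lowest of its group for Ffar4, Ankrd37, Fabp4, Bsg and Pfkl, and the highest for Itgb3 (8.59 TPM) and Rgs4 (3.81 TPM). Itgb3 (log2 1.91, SE 0.37), Rgs4 (2.11, SE 0.29), Pfkl (1.25, SE 0.19) and Bsg (1.60, SE 0.25) were called under every alternative that gave a value. All 6 genes least like the members were called lower by edgeR in the same comparison, by 0.31 to 0.69 on the log2 scale. Over all genes 12.5% were called lower there. Of these, Ppp1r16a, Retreg2, Stk11, Tert and Zdhhc9 were not called with limma on either TPM scale, and Ugt3a2 was called under all 22 alternatives.

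**Figure D4:**
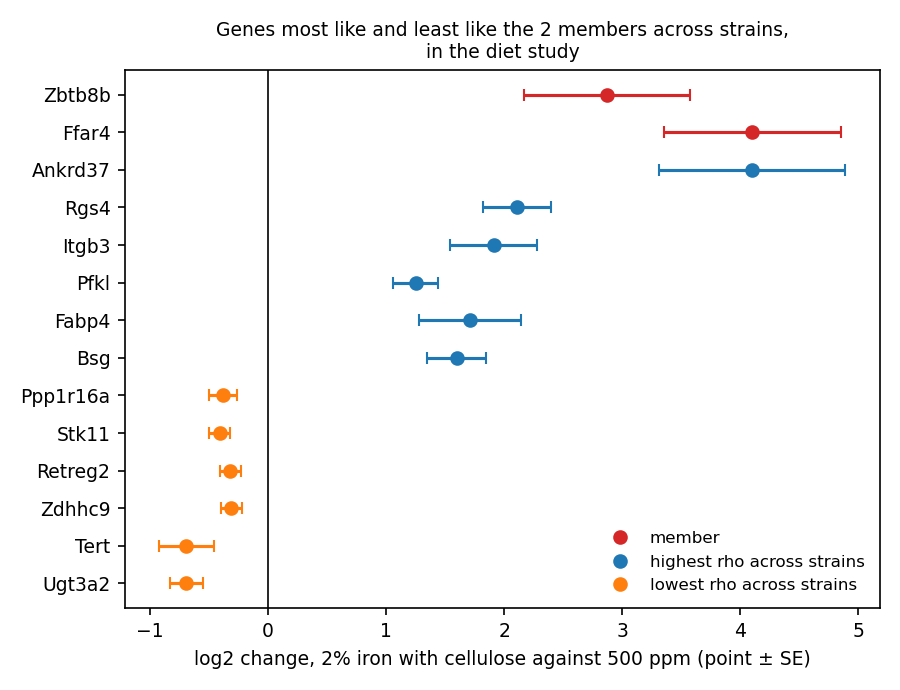
Log2 change in the diet study (2% iron with cellulose against 500 ppm, edgeR, point ± SE, 3 mice against 3) for Zbtb8b, Ffar4 and the genes with the highest and lowest rho to them over the 114 strains. The 6 genes most like them lie right of 0, from 1.25 for Pfkl to 4.10 for Ankrd37, and the 6 least like them left of 0, from -0.31 to -0.69.

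Few other fatty acid and metabolite receptors were measurable. Of 10 listed, 2 passed the filter on low counts. Cd36 rose on 2% iron with cellulose against 500 ppm, from 23.9 ± 2.95 to 76.2 ± 3.93 TPM (SD, n = 3; log2 1.47, SE 0.27, edgeR adjusted p = 0.00186). On 2% iron alone Cd36 was at 33.5 ± 4.53 TPM. Sucnr1, the succinate receptor, fell from 17.7 ± 6.05 to 8.41 ± 2.36 TPM (log2 -1.18, SE 0.27, edgeR adjusted p = 0.00676). Of the other free fatty acid receptors in the panel, Ffar3 was at 0 TPM in all 114 strains, Ffar2 at 0 in 62, and Ffar1 did not exceed 0.225 TPM.

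Of 16 genes of the FFAR4 signalling route, 15 were tested in that comparison, and 4 were called higher and none lower. Over all genes 13.4% were called higher and 12.5% lower. The list median was 0.02 against 0.00 for all genes. The 4 were the Gi subunit Gnai2 (log2 0.48, SE 0.08), the beta-arrestins Arrb1 (0.52, SE 0.17) and Arrb2 (1.10, SE 0.16), and Pla2g4a (2.26, SE 0.49), the phospholipase that releases arachidonic acid. Gnai2 and Arrb2 were called under all 22 alternatives. Arrb1, with edgeR adjusted p = 0.0416, lost its call under 10 alternatives, and Pla2g4a under both limma settings. The Gq subunits Gnaq and Gna11 gave 0.18 and -0.04 and were not called.

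Of 44 genes listed as ZBTB relatives, 43 were tested, 3 were called higher and 4 lower, with a median of -0.16, beside 13.4% higher and 12.5% lower over all genes. The list includes Zbtb8os, which lies on the strand opposite to Zbtb8a and was not called (edgeR adjusted p = 0.0838). Whether Zbtb8os belongs to the family was not checked. Over the alternatives 1 to 3 were called higher and 0 to 6 lower; of 22 alternatives, the call was lost in 7 for Zbtb48, 5 for Zbtb33 and 2 for Zbtb44, and in none for Zbtb4. Zbtb44 (log2 -0.45, SE 0.09), Zbtb33, also called Kaiso (-0.41, SE 0.11), Zbtb48, a telomere-binding protein (-0.59, SE 0.17), and Zbtb32 were lower. Zbtb4 (0.59, SE 0.12), Zbtb16, also called PLZF, and Hic1 were higher. The closest relative by name and position, Zbtb8a, 47649 bases from Zbtb8b, gave -0.08 (SE 0.37, edgeR adjusted p = 0.905), at 1.12 TPM with cellulose and 1.04 on 500 ppm.

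Neighbouring genes were set beside the members in the same comparison, where 13.4% of all genes were called higher and 12.5% lower. Of 30 annotated genes within 250 kb of Zbtb8b, 19 were tested, none was called higher and Rbbp4 was called lower (log2 -0.29, edgeR adjusted p = 0.0387, not called on either TPM scale, at -0.05). Of 12 genes within 250 kb of Ffar4, 4 were tested. Rbp4, the plasma retinol carrier 2366 bases from Ffar4, was at 2357 TPM with cellulose and 2470 on 500 ppm (log2 -0.20, SE 0.15, edgeR adjusted p = 0.336). Myof, a membrane repair protein 53494 bases away, rose (log2 1.5, SE 0.27, edgeR adjusted p = 0.00167) from 0.978 to 2.14 TPM.

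Cell type markers were compared on 2% iron with cellulose against 500 ppm, where 13.4% of all genes were called higher and 12.5% lower. Among lists with 3 or more genes tested, 0 of 6 stellate cell and 0 of 3 lymphocyte genes were called. Of 4 cholangiocyte genes 1 was called lower. Called higher were 1 of 5 endothelial, 1 of 3 adipocyte, 2 of 6 lipid-laden macrophage and 2 of 4 proliferation genes. The endothelial and cholangiocyte counts fell to 0 in 6 of 22 alternatives each. In these bulk samples, fewer cells of a type and less RNA per cell cannot be told apart. All 12 Kupffer cell and macrophage markers were called higher on 2% iron with cellulose than on 500 ppm, with a median log2 change of 1.92. Their summed level was at least 500 TPM on 2% iron, 560 to 835 with cellulose, and 130 to 240 in the 9 other mice. Of 6 erythroid genes 5 were tested, and 4 globin genes were called higher and Alas2 lower. Over the alternatives 1 to 5 erythroid genes were called higher, with 1 when mouse 3 of the cellulose group or mouse 1 or 3 of the 500 ppm group was left out. The summed level was 660 to 1069 TPM on 2% iron, 356 to 1027 with cellulose and 59.2 to 254 in the other mice. Of 5 neutrophil genes 3 were tested and S100a9 was called higher (log2 3.08, edgeR adjusted p = 0.0221). Over the alternatives 0 to 3 neutrophil genes were called higher. S100a9 lost its call in 4 of 21 alternatives: in the compared groups alone, without mouse 1 or 3 of the 500 ppm group, and without mouse 1 of the cellulose group (log2 1.54, edgeR adjusted p = 0.220). The neutrophil sum was 7.28 to 26.8, 16.1 to 121 and 0.528 to 13 TPM. Of 5 hepatocyte genes, all tested, none was called higher and 2 were called lower, with a median of -0.14. Serpina1a, a protease inhibitor of plasma, fell by 0.95 on the log2 scale (SE 0.14, edgeR adjusted p = 0.000552) and Apoa1, the main protein of high-density lipoprotein, by 0.64 (SE 0.13, edgeR adjusted p = 0.00307), both under all 22 alternatives. Alb, which encodes albumin, gave 0.28 (SE 0.15, edgeR adjusted p = 0.181) and averaged 29571 TPM or more in every diet group.

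In the panel the macrophage sum had a median of 518 TPM in the higher Ffar4 cluster and 428 in the lower, with rho 0.257 to Ffar4 and 0.287 to Zbtb8b. The neutrophil sum had medians of 46.6 and 7.50 TPM, with rho 0.590 and 0.452 to the same genes, and the erythroid sum 883 and 268 TPM, with rho 0.311 and 0.288. Their part in the levels of the members was not tested. Of the 7 adipocyte markers, Fabp4 alone reached rho 0.881 with Ffar4, while Lep was at 0 in all 114 strains, Adipoq in 105 and Cfd in 99. The adipocyte sum ran from 12.6 to 18.8 TPM on 50 ppm, 9.18 to 15.5 on chow, 15.7 to 17.7 on 500 ppm, 13.4 to 49.2 on 2% iron and 22.8 to 66.2 with cellulose. With cellulose the sums by mouse were 66.2, 40.1 and 22.8 TPM, of which Fabp4 held 50.2, 25.6 and 17.4. Cidec averaged 11.8 TPM there against 6.72 on 500 ppm, and Cfd 0 against 0.910. Neither of these changes was called by edgeR over all 15 mice. Of the gut hormone genes, Cck was at 0 in 113 strains and Pyy in 109, and of the pancreatic islet genes Ins1 and Iapp were at 0 in all 114.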

How the data were processed

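Per the submitters' processing notes, kallisto 0.46 and mm10 were used. The authors deposited expected counts (estimated counts per gene, 26.5% of diet values and 27.4% of panel values not whole) and TPM, per the file headers; file naming in the panel refers to Ensembl release 97. How transcripts were summed to genes is not given in the sources used here. Counts were rounded and tested with edgeR 4.0.16 (quasi-likelihood, TMM, filterByExpr) over all 15 diet mice or 2 strain families, in R 4.3.3, with Benjamini-Hochberg adjustment, two-sided, called at an adjusted p under 0.05. The fits were tested on simulated counts. Printed CPM are the deposited expected counts, rounded, per 1000000 of a library size adjusted by its TMM factor. Strain relations used log2 CPM with a prior count of 2, 129X1/SvJ averaged, and permutation tests in Python 3.11.15. Replicates are separate mice numbered by accession, so numbers pair nothing. The labels give no batch. Intervals cover counting error only, since counts were pooled over the mice of a group, which leaves out the spread between mice. Reads carry no molecular identifiers, so repeat reads of the same molecule may count as separate. Alternatives were RLE factors, other filters, the compared groups alone, DESeq2 1.42.0, limma 3.58.1 on log2(TPM + 1) and log2(TPM + 0.1), and each mouse left out.

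The members and gene lists were chosen with earlier results of these data known. Named genes are the members, up to 4 genes of each list by adjusted p, genes within 250 kb, the 5 highest and 3 lowest by rho (1 gene is not reported here), the relation partners, and the 3 highest and lowest strains with the parents. Strains at 0 tie and stand in alphabetical order. Beyond the rule, NOR/LtJ, NOD/ShiLtJ, NZB/BlNJ, I/LnJ, AXB4/PgnJ, the strains in related groups, Ffar1 to Ffar3, Gnaq, Gna11, Zbtb32, Zbtb16 and Hic1 were named after their values were seen.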

Additional observations from a re-analysis of the deposited data

Results flagged for a closer look

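BXH2/TyJ held 33 CPM of Ffar4, from 560 counts, while the other 3 BXH strains lay between 0.350 and 1.27 CPM. Its gap to the next strain took up most of the range of the family, which is what brought it out. Of the 2 groups of 4 to 10 samples tested in this way, Zbtb8b and Ffar4 in the BXH family, 1 was brought out. Chance does so in about 1 in 20 groups where values follow a normal distribution. Over all strains the CPM of Ffar4 was skewed (median 0.715, maximum 33), so that rate need not hold here. Zbtb8b in BXH2/TyJ was 1.42 CPM, also the highest of the 4, with the others at 0.140 to 1.12 CPM. BXH2/TyJ is 1 mouse, so a difference between strains cannot be told apart from one between mice.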

How the results depend on the processing

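Against 500 ppm, the rise of both members on 2% iron with cellulose was called under all 21 alternatives that gave a value (Zbtb8b log2 0.89 to 5.75, Ffar4 2.86 to 6.43); leaving out 1 mouse gave 2.42 to 5.75 and 3.62 to 6.43. With at least 10 counts in every library neither member was left to test, and no alternative is reported for the members in chow against 50 ppm. In 500 ppm against chow DESeq2 called Ffar4 (log2 5.17, adjusted p = 0.0432), in a comparison that reuses the chow mice behind the choice of Ffar4. Counts of called genes moved more. For cellulose against 500 ppm they were 2222 with the compared groups alone, 2062 and 2236 with limma on log2(TPM + 0.1) and log2(TPM + 1), and 2143 to 3989 without 1 mouse (2143 and 2263 without mouse 1 or 3 of the 500 ppm group). For cellulose against 2% iron they were 219 (DESeq2), 26 (10 counts in every library), 23 (compared groups alone), 51 (no filter) and 0 to 212 without 1 mouse (0 and 212 without mouse 2 or 3 of the cellulose group, 53 without mouse 2 of the 500 ppm group). For 500 ppm against 50 ppm they were 2 (DESeq2) and 1 (limma on log2(TPM + 0.1)). For 500 ppm against chow they were 286 (DESeq2), 24 (compared groups alone), 16 and 31 (limma) and 15 to 96 without 1 mouse (15 without chow mouse 2). For chow against 50 ppm they were 144 (DESeq2), 26, 19 and 14 in the same order and 4 to 63 without 1 mouse (4 and 6 without mouse 3 or 2 on 50 ppm, 7 without chow mouse 2). For BXD against AXB/BXA limma gave 911 and 910. Relations of Zbtb8b called numbered 5 within BXD, 0 within AXB/BXA and 3 within other inbred strains, and within AXB/BXA r was -0.0922 with Adgre1 and -0.152 with Bmp6. The cause was not tested in any of these. No paired analysis was possible because the labels give no replicate numbers. With 1 mouse per strain and under 10 counts of Zbtb8b in 68 of 114 strains, depth limits the ranking of low strains.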

Other observations

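Some closely related substrains differed in their counts, with 1 mouse each, while AXB19a/PgnJ and AXB19b/PgnJ were alike in Zbtb8b (1.21 and 1.38 CPM). AXB19/PgnJ, AXB19a/PgnJ and AXB19b/PgnJ held 0, 16 and 14 counts of Zbtb8b and 1, 85 and 3 of Ffar4. BXD48/RwwJ and BXD48a/RwwJ held 3.02 and 11 counts of Zbtb8b and 8 and 33 of Ffar4. Among strains related to C57BL/6J, Ffar4 was at 30.5 CPM in C58/J, 0.931 in C57L/J and 0 in C57BLKS/J, and Zbtb8b at 4.27, 0.931 and 0.0885 CPM. NOR/LtJ and NOD/ShiLtJ had similar Ffar4 levels (32.9 and 32.3 CPM) and 0.281 and 1.08 CPM of Zbtb8b.

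Zbtb18, a ZBTB relative with a known role as a repressor in neurons, had rho 0.680 with Ffar4 and 0.539 with Zbtb8b over the 114 strains, at a median of 13.5 TPM in the higher Ffar4 cluster and 9.11 in the lower. In the diet study it did not pass edgeR's test for cellulose against 500 ppm (log2 0.36, SE 0.17, adjusted p = 0.143). It was picked after its values were seen.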
